A study of Mus musculus with 6 samples.

Results

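Cyclins and cyclin-dependent kinases (CDKs) form the enzymes that drive a cell from growth factor stimulation into DNA replication and mitosis. The genes described are 10 named members of these families, namely the D cyclins Ccnd1, Ccnd2 and Ccnd3, the E cyclins Ccne1 and Ccne2, the A cyclin Ccna2, and the kinases Cdk1, Cdk2, Cdk4 and Cdk6. They were chosen by name with earlier results of these data known. Each was measured by 1 probe set row that the platform annotation maps to that gene alone. In this way 10 of 10 members were found among 14860 genes tested. RNA was measured on 6 Affymetrix expression arrays, from 3 cultures titled ERK1/2 null and 3 titled ERK1/2 wild type, all labelled as endothelial cells of the mouse aorta. All cultures came from mice of 4 weeks of age on the strain C57/BL6 (5 generations) and grew in medium with serum, heparin and endothelial growth supplement. The genotype label gives Erk1-/- with Erk2fl/fl for both groups, so that wild type cultures carry the Erk1 deletion too, although their titles call them wild type for ERK1/2. The null group received a lentivirus with Cre recombinase, named egfp-Cre for replicate 1 and Cre for replicates 2 and 3 in the genotype label and egfp-Cre for all 3 in the source label. The wild type group received a lentivirus with green fluorescent protein and no Cre, and so the groups differ in Cre itself as well as in Cre-dependent loss of Erk2. The titles call the replicates biological, but the labels do not say whether they came from separate animals or isolations. The p-values then measure only the spread between these arrays. The targeted kinase genes were not analysed here, and the group labels were therefore not checked by their levels.

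The ERK kinases carry growth factor signals to the nucleus, where they raise the output of early genes, among them Ccnd1. D cyclins bind CDK4 and CDK6 and begin the phosphorylation of the retinoblastoma protein, which frees E2F transcription factors. E2F activity then raises the genes of cyclin E and cyclin A, whose partner CDK2 drives DNA replication, and later CDK1, which with A and B cyclins drives mitosis.

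The values are log2 levels made by the authors with RMA (robust multi-array average), and differences are log2, ERK1/2 null minus wild type. A difference was called where limma's adjusted p was under 0.05 over all 14860 genes. Array medians lay between 6.09 and 6.27, and correlations across rows were 0.975 to 0.986 within groups. A principal component with 25.5% of the variance set replicate 1 of both groups apart from replicates 2 and 3, and the member calls are given below without these arrays. Of 14 endothelial markers, 10 lay below the 33rd percentile of levels, among them Pecam1 (3.97 in null and 3.77 in wild type, means of 3), Cdh5 (3.48 and 3.89), Kdr (2.94 and 3.36) and Tek (2.75 and 2.61). Others were brighter, such as Eng (9.73 and 9.28) and Flt1 (7.61 and 6.80), named after their values were seen. Of all 14860 genes, 1705 were called by limma and 3825 had an unadjusted p under 0.05. The endothelial list had 0 of 14 called by limma and 1, Erg, with an unadjusted p under 0.05. With the replicate number as a block 2 were called higher, Erg (log2 difference 0.98, limma adjusted p = 0.14, blocked 0.034) and Flt1 (0.82, limma adjusted p = 0.28, blocked 0.016). Of 11 fibroblast markers 3 rose in null cultures (8 with the block), where 5.35% of all genes did so (8.92% with the block). The summed level of these markers (log2 of the sum of linear levels) was 13.76 to 14.91 in null and 12.90 to 13.50 in wild type arrays. Of 10 smooth muscle markers 1 rose (4 with the block), with summed levels of 12.46 to 13.33 and 11.60 to 12.51. Summed endothelial levels were 9.93 to 10.58 in null and 9.61 to 10.19 in wild type arrays, and those of 6 blood cell markers 6.85 to 7.01 and 6.80 to 6.93. Eng alone stood at 9.27 to 10.02 in null and 8.93 to 9.65 in wild type arrays, and made up most of the endothelial sum. No marker was listed at 0. Summed fibroblast levels did not overlap between groups, those of the other 3 lists did, and the part of these markers in the cyclin and CDK results was not tested.

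Cyclins E1, E2 and A2, Cdk1, Cdk2 and Ccnd1 fell in ERK1/2 null cultures, by 1.24 to 2.47 on the log2 scale, while Ccnd2, Ccnd3, Cdk4 and Cdk6 did not pass the test. The fall was 5.55-fold for Ccne2, 4.79-fold for Ccna2, 4.35-fold for Cdk1, 3.83-fold for Ccne1, 2.42-fold for Ccnd1 and 2.37-fold for Cdk2. Of the 10 members 6 fell and none rose, where 6.12% of all genes tested were called lower and 5.35% higher (11.5% in all). At an unadjusted p under 0.05 there were 7 members, all lower, and 3825 of all 14860 genes in either direction. The null arrays lay wholly below the wild type arrays in 7 members, Cdk4 being the other, and wholly above them in none, where 14.6% and 16.5% of all genes did so. With the replicate block Cdk4 passed too, giving 7 of 10 lower and none higher, against 7.76% and 8.92% of all genes. The median difference of the 10 members was −1.26, beside 0.02 over all genes. Since the members were chosen with earlier results of these data known, the shares beside their counts are a description. The same 6 members were called in each of 6 fits that left out an array and in the fit without replicate 1 of both groups. In a bulk culture fewer cycling cells and less RNA per cell cannot be told apart.

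**Figure D1:**
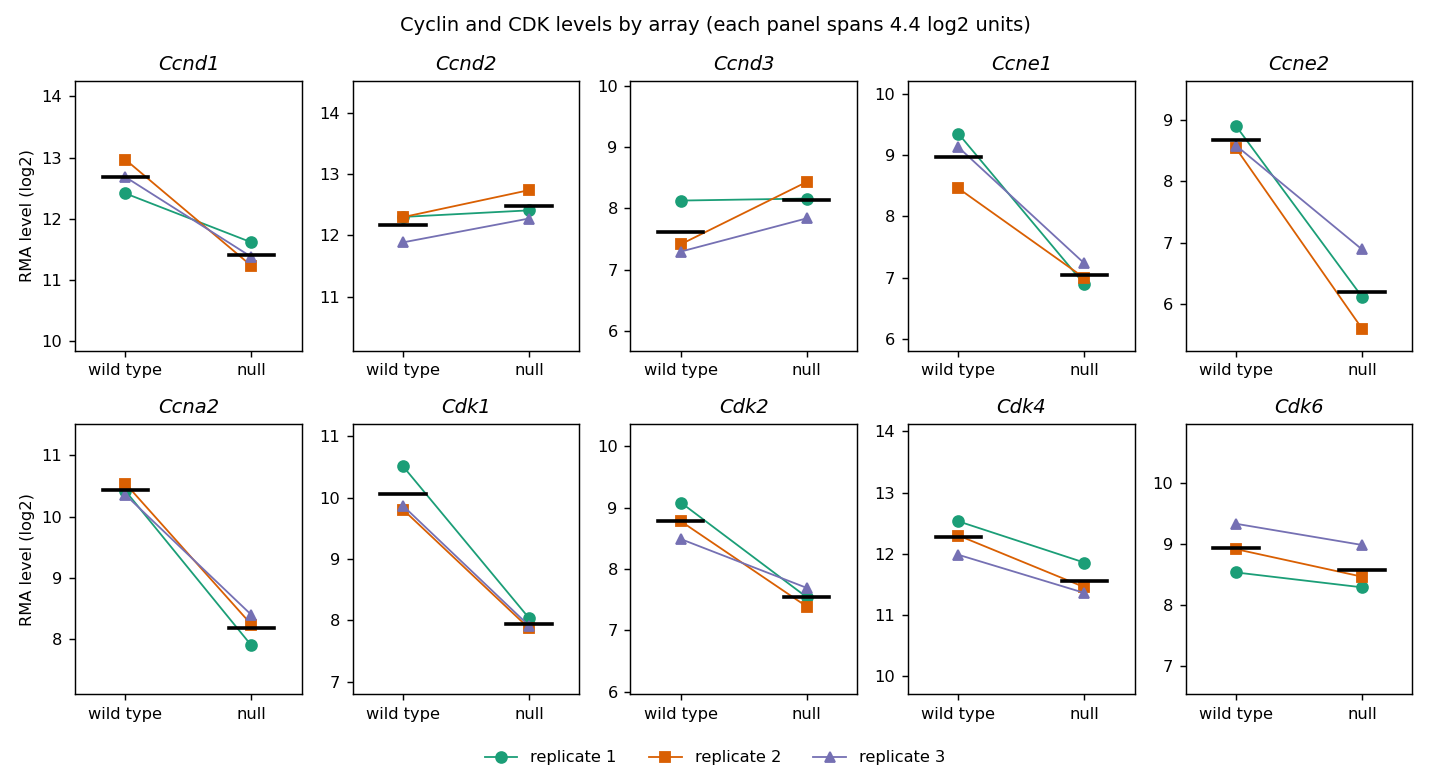
RMA level on the log2 scale (y axis) of each member in wild type and ERK1/2 null arrays (x axis), with lines joining arrays of the same replicate number and black bars at the mean of 3 arrays. Null arrays lie below all wild type arrays for Ccnd1, Ccne1, Ccne2, Ccna2, Cdk1, Cdk2 and Cdk4, and the groups overlap for Ccnd2, Ccnd3 and Cdk6.

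Among the D cyclins, Ccnd1 alone passed the test. Ccnd1 encodes cyclin D1, the partner of CDK4 and CDK6 whose gene is a classic target of growth factor signalling. Its log2 level was 11.62, 11.23 and 11.38 in null replicates 1, 2 and 3 and 12.41, 12.97 and 12.68 in wild type. The 3 null arrays lay close together and below every wild type array. Ccnd1 fell by 1.28 (SE 0.18, limma adjusted p = 0.0091). Within pairs its difference was −0.80, −1.73 and −1.30 for numbers 1, 2 and 3.

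Ccnd2 encodes cyclin D2, which serves the same kinases as cyclin D1. The level of Ccnd2 was 12.41, 12.74 and 12.27 in null and 12.30, 12.30 and 11.88 in wild type arrays. The groups overlapped, because null replicate 3 lay just below wild type replicates 1 and 2. The log2 difference was 0.31 (SE 0.18, 95% interval −0.12 to 0.75, limma adjusted p = 0.35), and it was 0.13 after quantile normalization. The interval excludes a fall of the size of Ccnd1.

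Ccnd3 encodes cyclin D3, best known from lymphocytes. Its log2 level was 8.16, 8.43 and 7.84 in null and 8.13, 7.42 and 7.30 in wild type arrays. Wild type replicate 1 stood within the range of the null arrays, so that the groups overlapped. The log2 difference was 0.53 (SE 0.26, 95% interval −0.10 to 1.17, limma adjusted p = 0.28), and pair 1 differed by only 0.03. A further row that the annotation gives to both Ccnd3 and the pseudogene Ccnd3-ps was left out. Its log2 levels, 2.64, 2.52 and 2.50 in null and 3.60, 3.83 and 1.90 in wild type arrays, overlapped between the groups.

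Whether the 3 D cyclins differed by unequal amounts was tested on their ratios within each array. The log2 value of Ccnd1 minus that of Ccnd2 was −0.79, −1.50 and −0.90 in null and 0.12, 0.67 and 0.80 in wild type arrays. The ratio moved against Ccnd1 by 1.59 (SE 0.31), or 3.01-fold, and the groups did not overlap. The ratio of Ccnd1 to Ccnd3 moved by −1.81 (SE 0.46), again with no overlap. That of Ccnd2 to Ccnd3 moved by −0.22 (SE 0.21) and the groups overlapped. The exact permutation p (2-sided, 3 against 3 arrays) was 0.1, 0.1 and 0.4 for these ratios, and 0.17, 0.17 and 0.44 when adjusted over 10 ratios. With 3 arrays against 3, 0.1 is the smallest p the test can give, so that no ratio could pass a threshold of 0.05. Only the change of a ratio is read here, since its size in an array depends on the probes.

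The E cyclins both fell. Cyclin E1, encoded by Ccne1, activates CDK2 at the entry to DNA replication. The log2 level of Ccne1 was 6.89, 6.996 and 7.23 in null and 9.35, 8.46 and 9.13 in wild type arrays. The groups lay well apart, and wild type replicate 2 was the lowest of its group. Ccne1 fell by 1.94 (SE 0.25, limma adjusted p = 0.0066).

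Ccne2 encodes cyclin E2, the close relative of cyclin E1 with the same partner. The level of Ccne2 was 6.12, 5.60 and 6.89 in null and 8.90, 8.54 and 8.58 in wild type arrays. The wild type arrays were close together, and the null arrays spread more widely (SD 0.65 against 0.20), with replicate 3 the highest. Its difference of −2.47 (SE 0.32, limma adjusted p = 0.0074) was −2.78, −2.94 and −1.69 within pairs 1, 2 and 3. The ratio of Ccne1 to Ccne2 moved by 0.54 (SE 0.36, exact permutation p = 0.3, adjusted 0.38), and the groups overlapped.

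Ccna2 encodes cyclin A2, which works with CDK2 in S phase and with CDK1 before mitosis. Its log2 level was 7.90, 8.24 and 8.40 in null and 10.42, 10.54 and 10.36 in wild type arrays. The wild type values were the tightest of the 10 members (SD 0.09), and every null array lay far below them. Ccna2 fell by 2.26 (SE 0.16) and had the lowest limma adjusted p of the members, 0.0015.

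Among the kinases Cdk1 and Cdk2 fell, and the differences shrank in size from Cdk1 through Cdk2 and Cdk4 to Cdk6. Cdk1 encodes the mitotic kinase, whose log2 level was 8.04, 7.87 and 7.91 in null and 10.51, 9.81 and 9.87 in wild type arrays. The 3 null arrays were nearly equal, and wild type replicate 1 was the highest. Cdk1 fell by 2.12 (SE 0.21, limma adjusted p = 0.0031).

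Cdk2 encodes the partner of cyclins E and A. Its log2 level was 7.54, 7.39 and 7.69 in null and 9.08, 8.78 and 8.49 in wild type arrays. The groups did not overlap, and the pair of number 3 differed least. Cdk2 fell by 1.24 (SE 0.18, limma adjusted p = 0.0097), with −1.54, −1.39 and −0.80 in pairs 1, 2 and 3.

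Cdk4 encodes a partner of the D cyclins. The level of Cdk4 was 11.86, 11.46 and 11.36 in null and 12.53, 12.30 and 11.99 in wild type arrays. The highest null array stood just below the lowest wild type array, and the 3 arrays ranked alike by number in both groups. Its difference was −0.71 (SE 0.20, 95% interval −1.19 to −0.24, limma adjusted p = 0.071). The differences within pairs were alike, at −0.67, −0.84 and −0.62, and with the replicate block the SE was 0.12 and the limma adjusted p = 0.019. Cdk4 was the only member whose call changed in any of 16 alternative settings, and the block was the setting.

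Cdk6 encodes the other D cyclin kinase. Its log2 level was 8.29, 8.46 and 8.98 in null and 8.53, 8.91 and 9.33 in wild type arrays. The groups overlapped widely, although the null array was the lower of each pair. The difference was −0.35 (SE 0.26, 95% interval −0.98 to 0.29, limma adjusted p = 0.49, and 0.12 with the replicate block), with −0.24, −0.45 and −0.35 within pairs.

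The kinases were set against each other in the same way. The log2 value of Cdk1 minus that of Cdk4 was −3.82, −3.59 and −3.45 in null and −2.02, −2.50 and −2.12 in wild type arrays. It moved by −1.41 (SE 0.18), the groups standing well apart. The ratio of Cdk1 to Cdk2 moved by −0.88 (SE 0.15), that of Cdk1 to Cdk6 by −1.78 (SE 0.49) and that of Cdk2 to Cdk4 by −0.53 (SE 0.19), all without overlap. Each of these 4 ratios had an exact permutation p of 0.1, the smallest possible, and 0.17 when adjusted over 10 ratios. The ratios of Cdk2 to Cdk6 (−0.90, SE 0.43) and of Cdk4 to Cdk6 (−0.37, SE 0.52) overlapped between groups, with exact permutation p of 0.2 and 0.5. Within pairs 1, 2 and 3 they moved by −1.30, −0.94 and −0.45 and by −0.43, −0.39 and −0.28, the same way in each pair. A paired test of 3 pairs was not run. Of the 10 ratios 6 were apart and 4 overlapped. Ratios of other genes were not computed, so no share of all ratios stands beside this count. Among single genes 14.6% were apart with null lower and 16.5% with null higher.

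**Figure D2:**
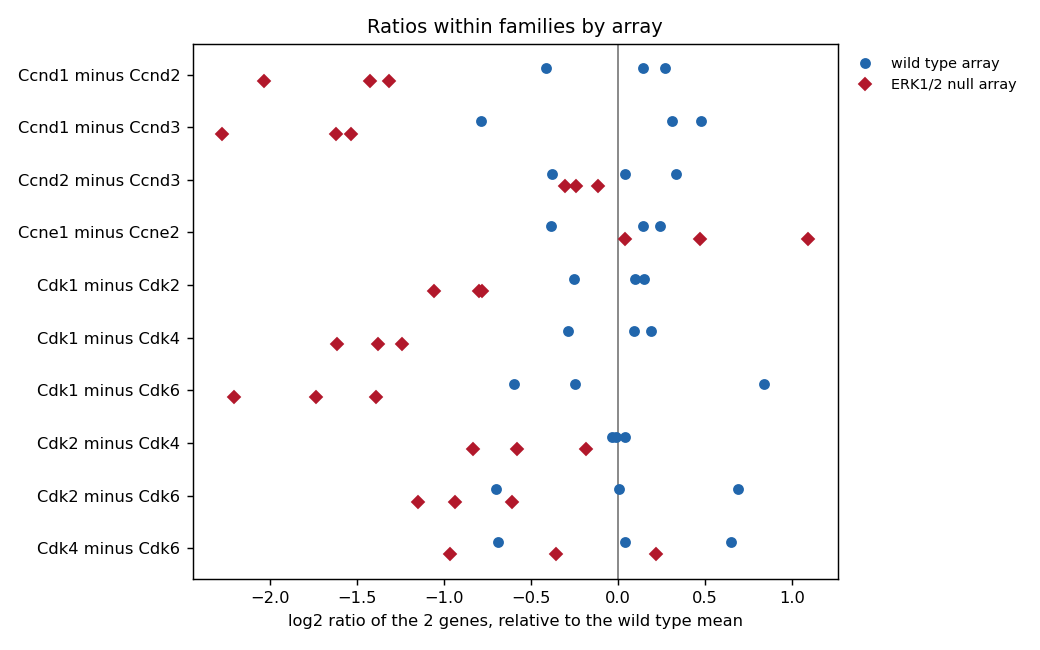
Log2 ratio of 2 genes of a family in each array, relative to the wild type mean of that ratio (x axis), for 10 ratios (y axis). Blue circles are 3 wild type and red diamonds 3 ERK1/2 null arrays, and the groups do not overlap for 6 ratios, among them Ccnd1 to Ccnd2 and Cdk1 to Cdk4.

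The sequences upstream of the 4 kinase genes are shown because 2 of these genes fell and 2 did not pass the test in the same cultures. RefSeq start sites of GRCm38.p6 gave entries for 6 of 10 members, and the 250 bases before the start were searched on both strands. Ccnd1, Ccnd2, Ccne2 and Ccna2 had no entry and were not searched. Capitals mark matches to 4 motifs. An E2F site was spelled TTTNNCGC, where N is any base. This is a loose spelling, since A or T at N counts as well as C or G. The matches TTTACCGC in Cdk1 and TTTTACGC in Cdk6 have A or T there. The cell cycle genes homology region, known as CHR, was spelled TTTGAA. Next came the box spelled CCAAT. An E-box, the site of Myc and its partner, was spelled CACGTG and was added after the letters had been read.
Cdk1 (chr10:69352913-69353162, minus strand): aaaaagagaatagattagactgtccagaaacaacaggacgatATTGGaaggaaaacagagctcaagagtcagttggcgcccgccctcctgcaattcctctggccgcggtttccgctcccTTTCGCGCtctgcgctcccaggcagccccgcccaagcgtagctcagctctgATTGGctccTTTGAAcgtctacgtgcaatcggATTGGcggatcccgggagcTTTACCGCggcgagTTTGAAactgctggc
Cdk2 (chr10:128705052-128705301, minus strand): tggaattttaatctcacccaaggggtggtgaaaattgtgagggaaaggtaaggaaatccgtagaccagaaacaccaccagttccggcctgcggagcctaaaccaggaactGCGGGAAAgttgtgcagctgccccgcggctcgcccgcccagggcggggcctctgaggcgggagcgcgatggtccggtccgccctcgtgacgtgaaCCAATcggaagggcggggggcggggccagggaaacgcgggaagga
Cdk4 (chr10:127063285-127063534, plus strand): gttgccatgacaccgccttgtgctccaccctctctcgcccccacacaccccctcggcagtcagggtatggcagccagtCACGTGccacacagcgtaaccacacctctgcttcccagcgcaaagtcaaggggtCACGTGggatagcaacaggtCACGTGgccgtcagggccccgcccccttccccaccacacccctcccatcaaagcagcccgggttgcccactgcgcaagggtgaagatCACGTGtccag
Cdk6 (chr5:3343643-3343892, plus strand): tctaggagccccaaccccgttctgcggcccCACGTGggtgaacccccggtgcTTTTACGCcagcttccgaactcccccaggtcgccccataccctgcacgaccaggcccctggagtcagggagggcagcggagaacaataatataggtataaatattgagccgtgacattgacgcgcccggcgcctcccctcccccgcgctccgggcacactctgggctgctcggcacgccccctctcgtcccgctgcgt
The Cdk1 window held 2 E2F matches, 2 CHR matches and 3 CCAAT boxes. The Cdk2 window held 1 E2F match and 1 CCAAT box, and the Cdk6 window 1 E2F match and 1 E-box. The Cdk4 window held 4 E-boxes and no E2F, CHR or CCAAT match. Of 32851 upstream windows of the same length, 4.28% held the E2F letters, 16.0% the CHR letters, 33.8% a CCAAT box and 6.02% an E-box. GC boxes (GGGCGG), in 32.7% of windows, occurred 2, 5, 1 and 0 times in Cdk1, Cdk2, Cdk4 and Cdk6 and 4 times in Ccne1, which had no other match. Of 2 windows of Ccnd3, 1 held a CCAAT box, and both held GC boxes. The AP-1 letters (TGANTCA), in 6.75% of windows, occurred in none of the windows of the 6 members searched, which do not include Ccnd1. In these windows no match shared a base with a match of another motif. These are matches of letters and show no binding.

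**Figure D3:**
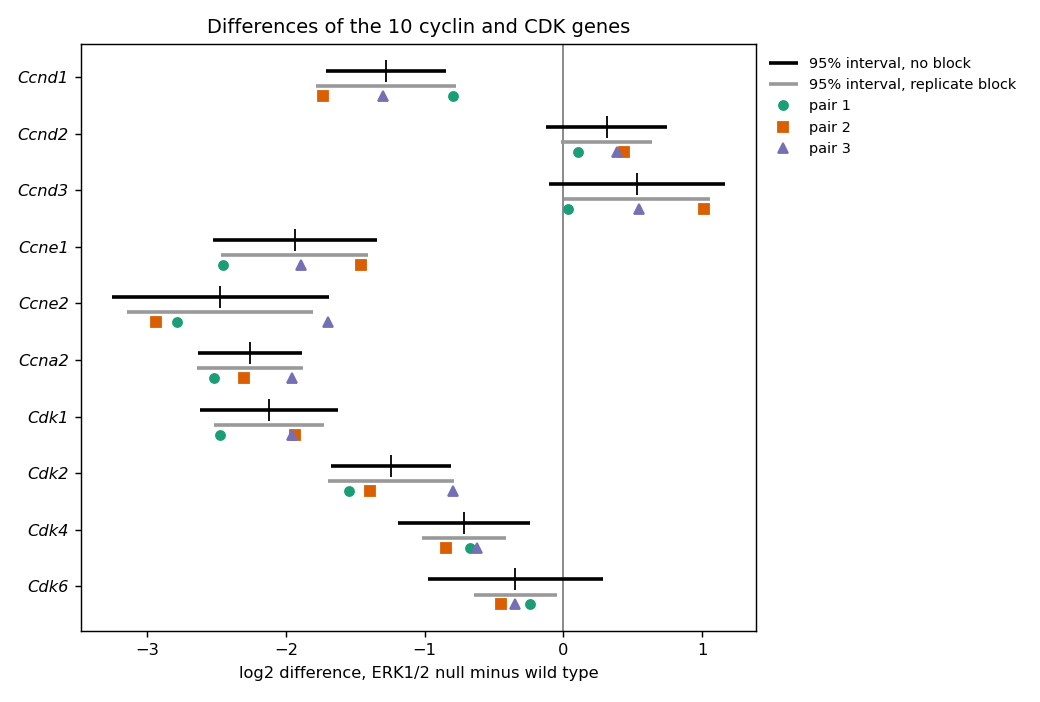
Log2 difference, ERK1/2 null minus wild type (x axis), of the 10 members (y axis), with the 95% interval of limma without the block (black, tick at the estimate) and with it (grey), and the difference within each numbered pair (symbols). Intervals without the block lie below 0 for 7 members and cross 0 for Ccnd2, Ccnd3 and Cdk6.

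The pairs were ordered differently among members. Ccna2, Cdk1, Cdk2 and Ccne1 differed most in pair 1, whereas Ccnd1, Cdk4, Cdk6 and Ccne2 differed most in pair 2. Of the 10 members 8 were lower in null in all 3 pairs and 2, Ccnd2 and Ccnd3, were higher in all 3, where 23.3% and 28.3% of all genes did so.

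For each member the gene outside the list with the nearest profile over the 6 arrays was found by the root mean square distance of centred log2 levels. These were Slc25a13 for Ccnd1 (distance 0.13), Rhbdl1 for Ccnd2 (0.050), Sesn2 for Ccnd3 (0.11), Mybl2 for Ccne1 (0.17) and Cenph for Ccne2 (0.22). For the others they were Ska3 for Ccna2 (0.042), Mcm2 for Cdk1 (0.088), Dnph1 for Cdk2 (0.072), H2bc21 for Cdk4 (0.055) and Flacc1 for Cdk6 (0.10). Ska3 and Cenph encode kinetochore proteins, Mcm2 a subunit of the replicative helicase, and Mybl2 a transcription factor of cycling cells. These functions were picked out, and those of the other nearest genes are not described. The next gene was nearly as close for Ccnd1 (0.1301 against 0.1294) and Cdk6 (0.1020 against 0.1018). With 6 arrays in 2 groups such distances follow mainly the group difference, and they are given as a description.

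Of 17 cyclins outside the list 1 fell and none rose (6.12% and 5.35% of all genes), with a median difference of −0.07, and this share is near that of all genes. Ccnf, an F-box protein that marks substrates for degradation in G2, stood at 6.02 ± 0.19 in null and 7.57 ± 0.39 in wild type (log2 level, SD, n = 3), and fell by 1.55 (SE 0.22, limma adjusted p = 0.0090). The mitotic cyclin gene Ccnb2 was named after its value was seen, with a log2 level of 6.39, 7.97 and 7.68 in null and 8.56, 10.18 and 9.52 in wild type arrays. Replicate 1 was the lowest of both groups, and the difference of −2.07 (SE 0.54) had a limma adjusted p of 0.060, and of 0.0023 with the replicate block. The other 15 cyclins, which include cyclins of transcription such as Ccnt1 and Ccnk, lay between −0.35 and 0.38.

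Of 15 other CDKs 1 rose and none fell (5.35% and 6.12% of all genes), with a median of −0.01, and this share is near that of all genes. The list takes in the CDK-like kinase genes Cdkl1, Cdkl2 and Cdkl3, which were not called. Cdk5, a kinase best known from neurons, stood at 9.55 ± 0.12 in null and 9.05 ± 0.09 in wild type (SD, n = 3). It rose by 0.50 (SE 0.12, limma adjusted p = 0.043), and this call was lost with the replicate block (0.063) and in each fit that lacked 1 array, where it reached 0.14 at most (null replicate 2 removed).

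Genes that switch cyclin-CDK complexes on or off, or act in the destruction of their subunits, made up a further list. Of 16 measured 7 fell and none rose (8 with the replicate block, which adds Fzr1), with a median of −0.49. Of all genes 6.12% were called lower and 5.35% higher, and 7.76% and 8.92% with the block. Cdc25c and Cdc25a encode phosphatases that activate CDKs, and they fell, with log2 differences of −2.60 (SE 0.52, limma adjusted p = 0.027) and −1.33 (SE 0.13, limma adjusted p = 0.0032). The call of Cdc25c was lost without null replicates 2 or 3 or wild type replicates 2 or 3, with adjusted p of 0.064, 0.061, 0.071 and 0.090. Fbxo5, an inhibitor of the anaphase-promoting complex, fell by 2.55 (SE 0.26, limma adjusted p = 0.0036), and Cdc20, an activator of that complex, fell by 1.81 (SE 0.26, limma adjusted p = 0.0095). Skp2, which targets the CDK inhibitor p27 for degradation, fell by 1.61. The kinases Wee1 and Pkmyt1, which hold CDK1 inactive, also fell (−1.01 and −0.99). Genes on both the activating and the restraining side thus fell, and Skp2, Cdc25a, Wee1 and Pkmyt1 were named after their values were seen.

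Of 11 pocket protein and E2F genes 5 fell and none rose (median −0.55), where 6.12% and 5.35% of all genes did so. The repressors E2f8 and E2f7 and the pocket protein gene Rbl1 fell (log2 differences −2.61, −2.05 and −1.83, SE 0.18, 0.21 and 0.19, limma adjusted p = 0.0015, 0.0036 and 0.0037), and E2f4 and E2f2, named after their values were seen, fell too (−0.57 and −0.55). E2f2 was dim, just below the 33rd percentile of levels. Rb1, the retinoblastoma gene, differed by 0.31 (limma adjusted p = 0.23). Other genes of the list that were not called differed more, with groups that did not overlap. These were E2f1 (−0.66, limma adjusted p = 0.070) and Rbl2 (0.54, limma adjusted p = 0.055), named after their values were seen. The number called in this list fell to 3 without null replicates 1 or 3, without wild type replicates 1 or 2, and without replicate 1 of both groups. Of 6 CDK inhibitors 1 rose and 1 fell, where 5.35% and 6.12% of all genes did so. Cdkn2b rose by 1.77 and Cdkn2c fell by 1.31 (limma adjusted p = 0.014 and 0.013). Their adjusted p were 0.061 and 0.057 without null replicate 2, that of Cdkn2b 0.057 without wild type replicate 3, and that of Cdkn2c 0.0501 without null replicate 3.

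**Figure D4:**
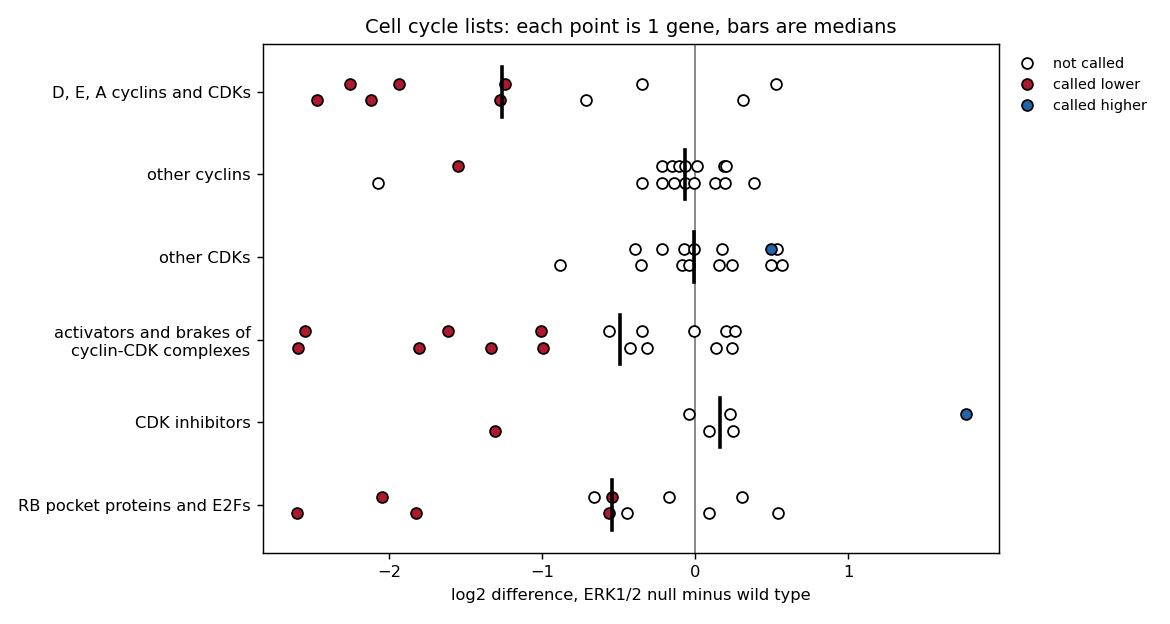
Log2 difference, ERK1/2 null minus wild type (x axis), of each gene of 6 lists (y axis), filled red where called lower, blue where called higher and open where not called, with a bar at the list median. The D, E and A cyclins and CDKs have a median of −1.26, while other cyclins and other CDKs have medians of −0.07 and −0.01. Among other cyclins Ccnb2 (−2.07, not called) and Ccnf (−1.55, called lower) lie far below that median.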

How the data were processed

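RNA of 3 ERK1/2 null and 3 wild type cultures, grouped by sample title, was measured on Affymetrix arrays. The deposited table holds log2 expression that the authors made with RMA, per the submitters' processing notes, whose version is not given in the sources used here. The values run from 0.74 to 14.32, which gives the scale. RMA compresses differences of dim rows. Depth does not apply, and the number of arrays limits the precision.

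Of 16775 rows, 14996 named 1 gene in the platform annotation, 1019 named several and 760 were not listed, and of the first 14941 took their symbol from the gene table of GRCm38.p6. The row with the highest mean stood for each of 135 genes with several rows, which left 14860 genes. Groups were compared with limma 3.58.1 (lmFit, eBayes) in R 4.3.3, 2-sided, with Benjamini-Hochberg adjustment over all genes, and tested on simulated data with 200 changed genes. Ratios of members were compared by exact permutation over arrays in Python 3.11.15 with pandas 2.3.3.

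Arrays of the same replicate number deviated together from their group means (r across genes 0.57, 0.35 and 0.45), so the numbers were taken to pair them, and the blocked fit is reported where it changed the call of a gene named in the text or the count of a list. Alternatives were other normalizations, a level filter, variance models, array weights, other row rules, the block, leaving out arrays and a threshold of 0.01. Leaving out replicate 1 of both groups was added after seeing the data.

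Members and lists were chosen with earlier results of these data known. Named were all members, up to 3 called genes of each other list with the largest difference (or the gene with the lowest p), and the nearest profile of each member. The blood cell marker named by that rule, Cd68, differed by 0.15 (limma adjusted p = 0.46), and Mfap5, Col3a1, Col1a2 and Mylk were the called fibroblast and smooth muscle markers, at 2.89, 2.17, 0.82 and 1.37. Mfap5, Col1a2 and Mylk lost the call without some single arrays.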

Additional observations from a re-analysis of the deposited data

How the results depend on the processing

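None of the 10 member differences changed sign in 16 alternative settings, and with the exception of Cdk4 under the replicate block (limma adjusted p = 0.019) none changed its call. The level filter, variance model, row rules, replicate block and stricter threshold cannot change the sign, because they left every member difference as it was. The sign was therefore tested only by the other normalizations, the array weights and the fits that left out arrays. The highest adjusted p of a called member was 0.045, for Cdk2 without null replicate 2. The number of members called was 6 in each fit without 1 array and 7 with the replicate block.

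Of all genes 1705 were called, 730 to 1331 without single arrays and 545 at the threshold of 0.01. Lower calls numbered 910, and 459 to 727 without single arrays, 363 at 0.01 and 556 without replicate 1 of both groups. Higher calls numbered 795, and 271 to 651 without single arrays, 182 at 0.01 and 1326 with the replicate block. Other cyclins gave 2 calls in place of 1 after subtraction of array medians, with the level filter, with the block and without replicate 1 of both groups, and 1 to 2 without single arrays. Other CDKs gave 0 calls in place of 1 by limma after subtraction of array medians, with the block, at 0.01, without replicate 1 of both groups and without any single array. With all arrays 4 of 15, namely Cdk5, Cdk8, Cdkl2 and Cdkl3, had an unadjusted p under 0.05, as did 3825 of all 14860 genes. Activators and brakes gave 5 to 7 calls without single arrays. The number of family ratios apart between groups was 6, and 6 to 7 without single arrays. With the pairing, 8 of 10 ratios moved the same way in all 3 pairs, and ratios that share a gene are not independent. Of all single genes, 23.3% were lower and 28.3% higher in all 3 pairs. The cause of the changes between settings was not tested.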
